A study of Homo sapiens with 4 samples.

Results

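The SOCS (suppressor of cytokine signalling) family consists of SOCS1 to SOCS7 and CISH, 8 genes chosen by name, and 4 of them carried N6-methyladenosine (m6A) peaks in MDA-MB-231, a widely used human cell line derived from a triple negative breast cancer. These were SOCS3 with 4 peaks, SOCS4 with 2, and SOCS6 and CISH with 1 each, so that the family held 8 of the 20261 peaks in the list. SOCS1, SOCS2, SOCS5 and SOCS7 had no peak in it. The strongest peak of SOCS3 (score 1e-267, 1041 bases) was far stronger than any other peak of the family, the next being that of CISH (2.5e-24, 748 bases).

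The list was made by m6A-seq, in which fragmented poly(A) RNA is immunoprecipitated (IP) with an antibody against m6A and compared with input RNA that was not immunoprecipitated. There were 2 IP and 2 input libraries, all labelled shNS, from the same cell line and without a further treatment in the titles. YTHDC1 is named as the treatment of the IP libraries, but by title and protocol these are IPs with the m6A antibody, and they were read as such. The 4 libraries had been combined into 1 list with 1 score per peak, so no spread between replicates could be computed, no test was run, and the read depth behind a peak is unknown.

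SOCS proteins are feedback inhibitors of cytokine receptors. A cytokine activates Janus kinases (JAKs) bound to its receptor, these phosphorylate STAT transcription factors, and STATs then switch on some of the SOCS genes. SOCS proteins bind the receptor or the kinase through an SH2 domain and recruit a ubiquitin ligase through the SOCS box. Their mRNAs are mostly short-lived, and in T cells m6A on Socs transcripts is known to promote their decay. No cytokine was named in the labels of these libraries, and the list holds no expression values. A gene without a peak may thus have been unmethylated, weakly expressed or below detection.

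Because some SOCS genes are switched on by STATs, the RefSeq promoter windows (GRCh38.p14, 250 bases before to 50 after a gene start) were searched for TTCNNNGAA. This is the core of a STAT binding site and reads the same on both strands. Entries were found for 5 of the 8 genes, in 6 windows because SOCS3 has 2 starts. SOCS2, SOCS5 and SOCS7 had no entry. Sites outside these windows were not searched for. A window without a match, such as the 2 of SOCS3, thus does not mean a gene without a STAT site. The motif was in 7.66% of all 35116 windows and in 1 of the 6, that of CISH, which held 4 matches as 2 close pairs. They are shown because only 7 windows in the whole table (0.0199%) held 4 or more matches, which may overlap. The matches are in capitals, 5′ to 3′ on the minus strand:
CISH, bases 241 to 222 before the start (chr3:50611996-50612015): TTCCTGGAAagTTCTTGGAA
CISH, bases 129 to 104 before the start (chr3:50611878-50611903): TTCTAGGAAgacgctgcTTCCGGGAA
None of the 6 windows held an m6A peak. That was largely set in advance, since the windows lie mostly before a gene start and the peaks come from poly(A) RNA. The peaks of the family all lay further downstream, and the sequence under them is not printed here.

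The score is the authors' deposited value for a peak, read as a p-value for the excess of IP over input reads, so that smaller means stronger. Strong and weak refer to this score only. A p-value depends on the number of reads as well as on the enrichment, so the score does not give the level of m6A. The median score of the list was 5.2e-08. Strength differed by gene strand over the whole list. The minus strand held 72.3% of the peaks, with a median score of 3.2e-10 against 1.4e-05 on the plus strand. SOCS genes were therefore ranked among genes of their own strand, 6624 minus-strand and 3516 plus-strand gene IDs. SOCS3, CISH and SOCS1 are on the minus strand and SOCS4 and SOCS6 on the plus strand. For SOCS2, SOCS5 and SOCS7 no strand was given, so their lack of a peak could not be set beside the share of their strand.

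The share of SOCS genes with a peak was near that of all genes. Of 19153 protein-coding genes, 42.7% had at least 1 peak, against 4 of the 8 SOCS genes, and 27.8% had a peak as strong as the list median (score no larger than it), against 2 of the 8 (SOCS3 and CISH). Where the promoter table gave the strand, the share with a peak was 57.5% of minus-strand protein-coding genes and 30.3% of plus-strand ones. For a peak at or under the list median these shares were 45.3% and 12.6%. All 4 of the SOCS peaks that strong were on the minus strand, and the scores of the 3 peaks of SOCS4 and SOCS6, like that of a short SOCS3 peak, were larger (weaker) than the median. The part of strand in this difference was not tested.

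SOCS3, an inhibitor of gp130 receptor signalling that binds both receptor and JAK, had the most peaks of the family (ENSG00000184557, chromosome 17, RefSeq span 78356778 to 78360925, minus strand). Its 4 peaks are given here in the direction of transcription. The first ran from 78358887 to 78358976 (90 bases) and had a score of 0.00048. The second ran from 78357788 to 78358828 (1041 bases) and had a score of 1e-267. The third ran from 78357105 to 78357342 (238 bases), with a score of 6.3e-16.

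The fourth SOCS3 peak ran from 78356778 to 78357016 (239 bases), with a score of 5.9e-09, and ended exactly at the 3′ end of the RefSeq span. Such an exact end was seen for 2.10% of the 11541 minus-strand peaks inside the span of a protein-coding gene. The 4 peaks were separated by 58, 445 and 88 bases. They covered 1608 of the 2199 bases from the first to the last (73.1%), and the 1041-base peak alone held 64.7% of the peak bases. The span was counted from the outer start of SOCS3, and its first 1949 bases had no peak. Counted from the inner start, the peaks would lie nearer the 5′ end. The signal of SOCS3 was thus 1 long strong peak flanked by weaker ones. The 4 peaks lay between the middle and the 3′ end of the span used here, the 90-base peak close to its middle.

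**Figure D1:**
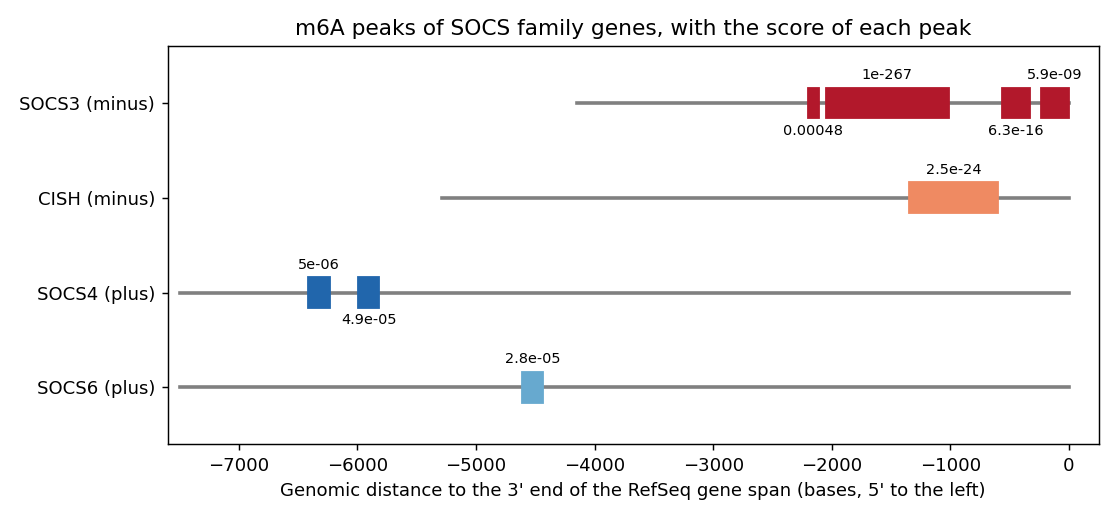
Peaks of SOCS3, CISH, SOCS4 and SOCS6 drawn to scale by genomic distance from the 3′ end of the RefSeq gene span (bases, 5′ to the left), with the score beside each box. Grey lines are gene spans, cut off at 7500 bases for SOCS4 and SOCS6, and the SOCS3 peaks reach the end of the span whereas those of SOCS4 stop 5814 bases before it.

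Among minus-strand genes, SOCS3 ranked 497th of 6624 by its strongest score, so that 7.50% of these genes had a peak as strong or stronger. By number of peaks, 15.2% of minus-strand genes had 4 or more. By total peak bases 9.99% had as many, and by longest peak 7.31% had one as long. The order of SOCS3 was thus similar by strength and length and lower by number of peaks. Its gene span, counted from the outer start, is short, and 38.8% of the 4148 bases were in peaks. This share was reached by 2.17% of 5306 minus-strand protein-coding genes with a peak. Among the 1075 of these with a span of at most 10000 bases it was reached by 10.6%, and a peak as strong by 13.1%.

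CISH, the founding member of the family and a STAT5 target that acts in T cell and growth hormone signalling, had 1 peak (ENSG00000114737, chromosome 3, span 50606489 to 50611774, minus strand). It ran from 50607088 to 50607835 in 1 block of 748 bases, 599 bases before the 3′ end of the span, with a score of 2.5e-24. CISH ranked 3179th of 6624 minus-strand genes by strongest score (48.0% as strong or stronger). It stood higher by the length of its longest peak, which 16.5% of these genes matched or exceeded.

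The score of the CISH peak was large (weak) for its length. Of 1302 minus-strand peaks of similar length (the shorter of each pair at least 0.8 times the longer), 79.4% had a score at or under that of CISH, and their median score was 9.7e-65. For the longest SOCS3 peak the same share was 17.8% of 703 peaks, with a median of 6.3e-94. The other SOCS3 peaks were nearer the middle of peaks of similar length, with 457 of 942, 1080 of 3004 and 1844 of 3045 peaks as strong or stronger, in the direction of transcription. The 2 long peaks of the family thus lay on opposite sides of the median for their length.

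**Figure D2:**
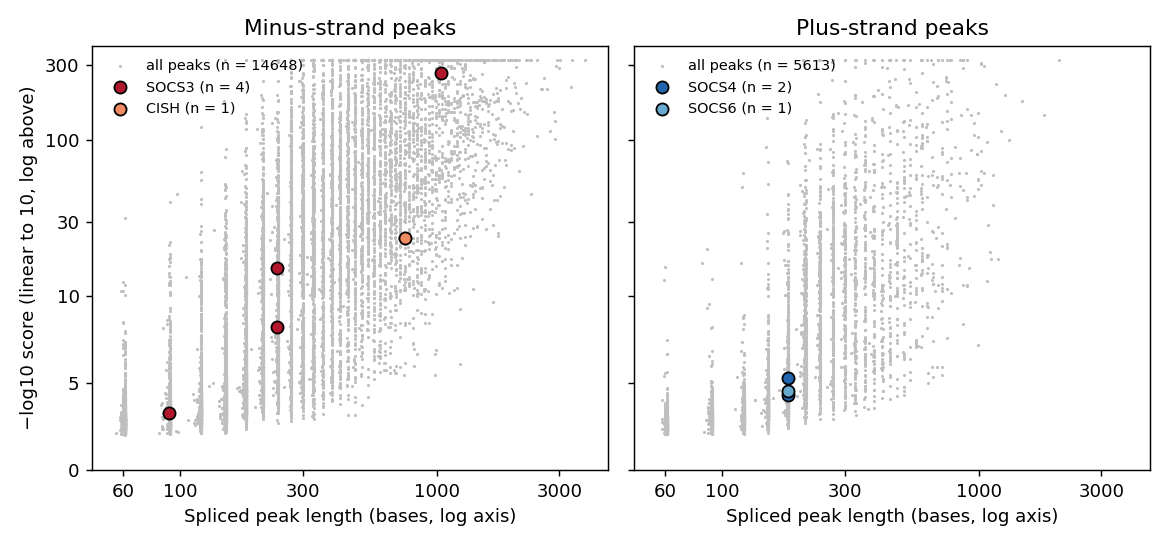
Spliced length of each peak (bases, log axis) against its −log10 score (linear up to 10, log above) for minus-strand and plus-strand peaks. Grey points are all 14648 and 5613 peaks, those listed at 0 being placed at 323, and coloured points are peaks of SOCS genes: the 1041-base SOCS3 peak lies in the upper part of the points of its length and the 748-base CISH peak in the lower part.

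SOCS4, which is linked to EGF receptor signalling, had 2 peaks (ENSG00000180008, chromosome 14, span 55027236 to 55049489, plus strand). They ran from 55043075 to 55043255 (score 5e-06) and from 55043495 to 55043675 (score 4.9e-05). Both were 181 bases long and 239 bases apart. From the second to the 3′ end of the span there were 5814 bases. SOCS4 ranked 1964th of 3516 plus-strand genes by strongest score (55.9%), and 36.6% of these genes had 2 or more peaks.

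SOCS6, which binds receptor tyrosine kinases such as KIT, had 1 peak of 181 bases (ENSG00000170677, chromosome 18, span 70289045 to 70330199, plus strand). It ran from 70325588 to 70325768, 4431 bases before the 3′ end, with a score of 2.8e-05. SOCS6 ranked 2255th of 3516 plus-strand genes (64.1%). The plus-strand median peak length was also 181 bases, and 38.2%, 60.3% and 53.9% of plus-strand peaks of similar length were as strong as the 2 SOCS4 peaks and the SOCS6 peak. These 3 peaks were near the middle of plus-strand peaks in both length and strength.

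**Figure D3:**
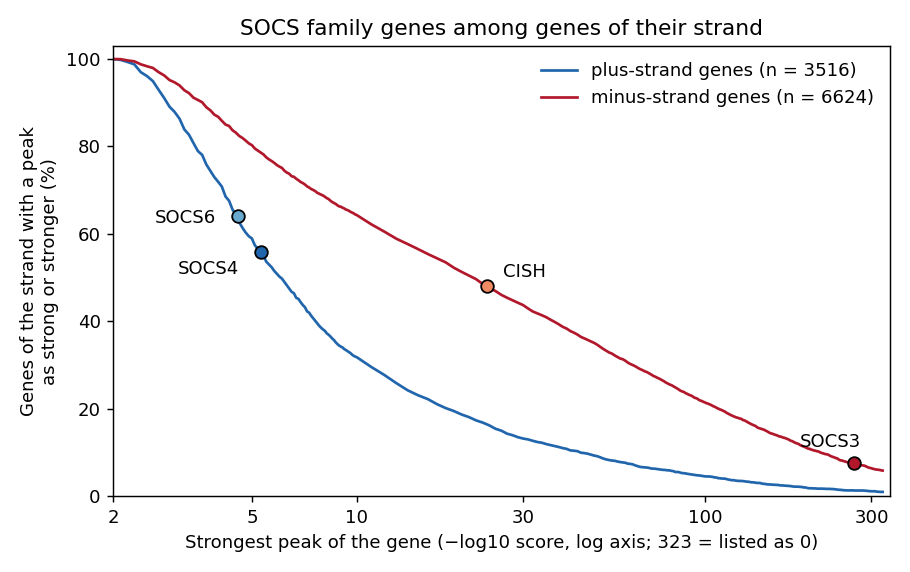
Share of genes of each strand (%, vertical axis) whose strongest peak reaches the −log10 score on the horizontal axis (log axis), for 3516 plus-strand and 6624 minus-strand genes. SOCS3 lies near the right end of the minus-strand curve at 7.50%, CISH near its middle at 48.0%, and SOCS4 and SOCS6 in the lower scores of the plus-strand curve at 55.9% and 64.1%.

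Of the 8 SOCS peaks, 7 had their midpoint in the second part of the gene span when it was cut in the middle, between 63.1% and 97.1% of the way from the 5′ end. The exception was the 90-base SOCS3 peak at 48.1%. Over all 15944 peaks inside protein-coding gene spans the share past the middle was 70.5%. The last decile of the span by length held the midpoint of 1 of the 8 SOCS peaks (12.5%), against 37.4% of all these peaks. The 3′ edge lay within 5000 bases of the end of the span for 6 of the 8, against 54.6% of all these peaks. SOCS3 alone gave 4 of the 8 peaks, and these differences were not tested. The positions of the SOCS3 peaks along the span also depend on the start used, here the outer one. The spans include introns, and which exon or UTR a peak lies in was not analysed here.

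The 8 peaks had features that most peaks of the list had too. Each was in 1 block, as were 82.1% of all peaks. None shared a base with a peak on the opposite strand, which held for 90.0% of all peaks. None was among the 745 peaks (3.68%) at the end of the file, where the order of chromosomes begins anew. No peak of another gene lay within the RefSeq span of any of the 8 SOCS genes, including the 4 without a peak. These 4 were SOCS1, the direct JAK inhibitor of interferon signalling (chromosome 16, 11254417 to 11256204), SOCS2, the inhibitor of growth hormone signalling (chromosome 12, 93569969 to 93626236), SOCS5 (chromosome 2, 46698937 to 46763129) and SOCS7 (chromosome 17, 38351844 to 38405593).

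The pathway around the family was described with 8 further lists of 135 genes, of which 50 (37.0%) had a peak and 38 (28.1%) had one at or under the list median, close to the shares of 42.7% and 27.8% over all protein-coding genes. Of 21 cytokines, 4 had a peak. They were CLCF1 (6.3e-53), LIF (1.3e-32), CSF2 (2.4e-05) and IL11 (4.6e-05). Of 42 cytokine receptor genes, 13 had a peak and 7 one at or under the median. The strongest was in IL6ST, which encodes gp130, the receptor chain that SOCS3 binds (1e-246, a peak as strong in 543 of 6624 minus-strand genes), and it shared 196 bases with a peak on the opposite strand. By score over both strands EPOR (1.3e-96), LIFR (7.9e-50) and IFNLR1 (3.2e-46) followed. Within its own strand the plus-strand gene IL4R (29.8% of genes as strong or stronger) stood above LIFR (34.6%) and IFNLR1 (35.9%).

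Among the JAKs, TYK2 (2 peaks, strongest 2.5e-71) and JAK1 (1 peak, 1.8e-07) had peaks, and JAK2 and JAK3 had none. Among the STAT genes, STAT6 had 3 peaks (strongest 1e-136), STAT2 had 2 (4e-14) and STAT5B had 1 (1.7e-08). STAT3, STAT4 and STAT5A had no peak. All 5 JAK and STAT genes with a peak were on the minus strand, as were most JAK and STAT genes in the promoter table (8 on the minus and 2 on the plus strand). The pair that SOCS3 is best known to restrain downstream of gp130, JAK1 and STAT3, thus had 1 peak with a score above the list median and no peak.

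Other inhibitors of the pathway had peaks in 6 of 12 genes. The 4 smallest scores over both strands were those of the SUMO ligase genes PIAS2 (1.3e-22), PIAS1 (1.6e-18, sharing 275 bases with an opposite-strand peak), PIAS3 (5e-12) and PIAS4 (1.6e-10). Ranked within strands the order was PIAS1 (20.2% of genes as strong or stronger), PIAS4 (32.2%), SH2B3 (37.7%), PIAS2 (49.7%) and PIAS3 (61.7%). Of the 6 ubiquitin ligase genes listed as partners, CUL2 alone had a peak (5e-19). CUL5, which SOCS proteins mainly use in its place, had none, nor had ELOB, ELOC, RBX1 and RNF7. CUL5, RBX1 and RNF7 are on the plus strand, where 30.3% of protein-coding genes had a peak. CUL2 and ELOB are on the minus strand, where the share was 57.5%, and for ELOC no strand was given. Whether these 6 genes differ from the shares of their strands was not tested. Of 28 genes for other proteins with a SOCS box, 10 had a peak and 9 one at or under the median. The strongest, all on the minus strand, were ASB13 (3 peaks, strongest listed at 0), ASB8 (2 peaks, 1e-318), ASB6 (4 peaks, 1e-290) and SPSB2 (2 peaks, 1e-222). The strongest scores of ASB13, ASB8 and ASB6 were smaller than that of SOCS3, and that of SPSB2 was larger.

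STAT target genes other than SOCS genes had peaks in 11 of 15 cases (73.3%), 10 of them at or under the median. The share was the highest of the 9 lists, a difference that was not tested. The smallest scores were those of MCL1 and BCL2L1, which encode inhibitors of apoptosis, and the transcription factor gene CEBPD, all listed at 0. That of BCL2L1 shared 745 bases with a peak on the opposite strand. IRF1, an interferon-induced transcription factor, followed with 1e-43 by score over both strands. Within their own strand 4 plus-strand genes stood above IRF1 (37.0% of genes as strong or stronger): MYC (10.8%), JUNB (11.7%), CEBPB (23.1%) and CCND1 (28.7%). SH2B3, IL4R and these 4 genes were named after their values were seen.

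**Figure D4:**
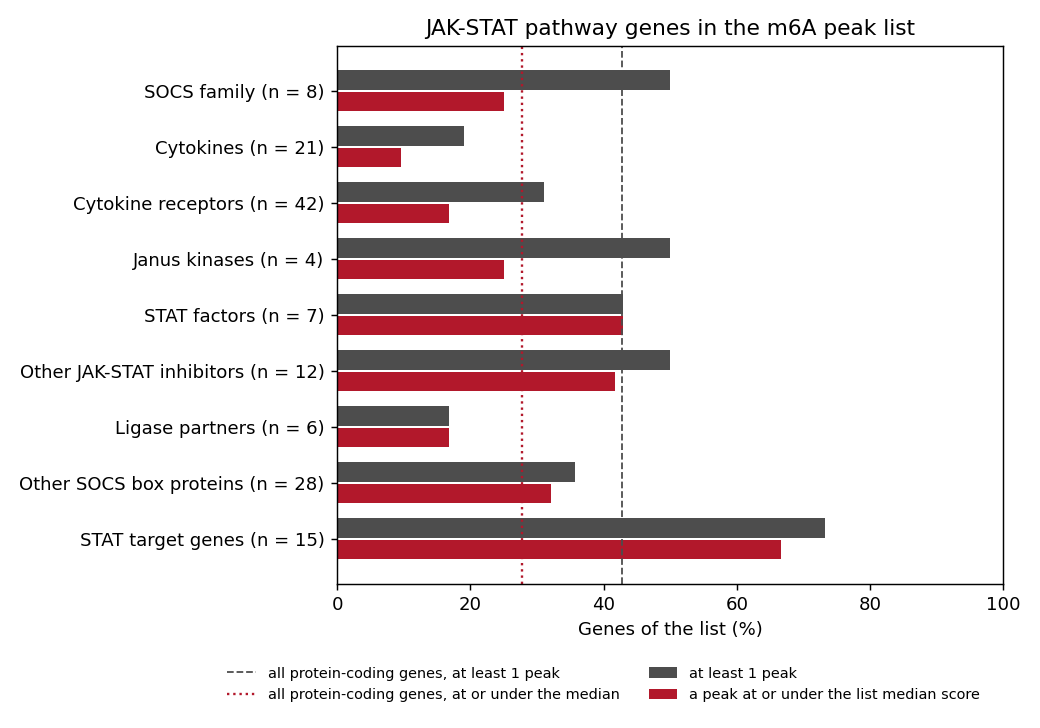
Share of each list's genes (%, bars from 0) with at least 1 peak (grey) and with a peak at or under the list median score (red), with the shares over all 19153 protein-coding genes as dashed and dotted lines. The SOCS family stands at 4 and 2 of 8 genes, near the lines at 42.7% and 27.8%, and the STAT target genes are above both.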

How the data were processed

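m6A-seq data of 2 IP and 2 input libraries from MDA-MB-231 cells were obtained as 1 peak list. The authors mapped reads with STAR to GENCODE v33 (hg38 per the labels), called peaks with exomePeak (version 2.16) and filtered them by fold enrichment (1 or more) and FDR (0.05 or less). The deposited score was read as a p-value, although an FDR is possible. A score of 0 was ranked at a −log10 of 323. Depth is unknown.

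Gene IDs were matched to symbols without their version (10103 of 10140). Spans and biotypes came from RefSeq (GRCh38.p14) by symbol, and strands of genes without a peak from its promoter table (15318 of 19153 protein-coding genes). Ranks count genes as strong or stronger. Peaks overlapped if they shared at least 1 base. Members and lists were chosen with earlier results of these data known. Named were all SOCS, JAK, STAT and ligase partner genes, except 1 that is not reported here, and the 4 genes with the smallest scores in every other list. Ranks by gene span, by share of span and among peaks of similar length were chosen after seeing the data. Alternatives are given in the closing section. Python 3.11.15 with pandas 2.3.3 was used, and the functions were tested on simulated data.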

Additional observations from a re-analysis of the deposited data

How the results depend on the processing

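With peaks at or under the list median only, the SOCS family kept 2 genes and 4 peaks, all 4 past the middle of the span. The number of genes and peaks did not change without the last 745 peaks of the file or without peaks overlapping the opposite strand (4 genes, 8 peaks), nor the number of peaks with merging. The 50 pathway genes became 38, 48 and 47 under the median, the omission of the last 745 peaks and the omission of overlapping peaks. The percent of genes as strong or stronger was, for genes of both strands together, 5.36 for SOCS3, 37.1 for CISH, 70.7 for SOCS4 and 76.5 for SOCS6. Among protein-coding genes alone it was 9.03 for SOCS3, 55.7 for CISH, 56.1 for SOCS4 and 64.4 for SOCS6. Among those with a span of at most 10000 bases, a restriction chosen after seeing the data, it was 13.1 for SOCS3 and 58.4 for CISH. Without peaks overlapping the opposite strand it was 50 for SOCS4 and 59.2 for SOCS6. Each of these follows from which genes were ranked. No paired analysis was possible because every peak carries a single score made from the 4 libraries jointly, and for the same reason no replicate could be left out. Without the depth, little can be said of SOCS1, SOCS2, SOCS5 and SOCS7.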
